A study of Homo sapiens with 12 samples.

Results

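The genes described here are the 75 whose mRNA was higher with both CENPA hairpins in 22Rv1, a human prostate carcinoma cell line with epithelial origin. CENPA is the histone H3 variant that marks the centromere. The cells carried a doxycycline-inducible hairpin vector with a nontargeting shRNA (shNT) or with either of 2 shRNAs against CENPA (shCENPA1 and shCENPA2). Every group, shNT included, received doxycycline at 2 µg/ml for 72 h, so no library shows cells without the drug or without a hairpin. Each hairpin gave 2 libraries, each sequenced in 2 lanes, for 12 runs in all. The mean of both lanes was taken as 1 replicate (n = 2 per group), and nothing in the labels says whether a pair of libraries came from separate cultures. The spread between them may therefore be technical.

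The members were chosen on measured values. Levels are log2 RPKM, the logarithm of reads scaled to gene length and library size, so levels of different genes can be compared per length. A gene was kept when its mean over all runs was at least 0, and when its group mean exceeded that of shNT by at least 0.8 with shCENPA1 and with shCENPA2. Of 14828 genes in the table, 12050 had a mean of at least 0. Of these, 80 (0.664%) met both changes, and 75 were left after 3 antisense transcripts and 2 genes that the rule sets aside by name (GDF15 and PDE9A) were dropped. A further 99 genes met both changes with a mean below 0 and were not taken. Because the choice used each hairpin against shNT, the differences from shNT given for the 75 genes are a description and carry no test. Just inside the threshold stood RFPL1S, DTX3 and FNDC5, with smaller changes of 0.801, 0.803 and 0.805. LHFPL2, FAM129A and SH3BGR, with smaller changes of 0.798, 0.798 and 0.798, stood just outside.

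The silenced gene followed the labels. CENPA was at 2.46 and 2.18 log2 RPKM in the shNT libraries, at 0.50 and 0.58 with shCENPA1, and at -0.47 and -0.41 with shCENPA2. The groups did not overlap, and the CENPA level was lower with shCENPA2 than with shCENPA1. Libraries held 79172294 to 133074655 reads in genes, and single members rested on 22 to 26576 reads per library (median 1091).

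As background, several stress pathways act on groups of genes that occur among the members. ATF4 is the transcription factor of the integrated stress response and switches on genes of amino acid supply and of stress-induced death when translation is restrained. NRF2 and the aryl hydrocarbon receptor (AHR) drive detoxifying enzymes such as NQO1 and CYP1A1. Neuronal genes such as the vesicular glutamate transporter SLC17A7 are kept low in most epithelial cells.

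Over the 75 genes the change from shNT ranged from 0.80 to 1.91 on the log2 scale with shCENPA1 (median 1.06) and from 0.80 to 2.96 with shCENPA2 (median 1.40). In linear terms the medians were 2.08-fold and 2.64-fold, and 45 genes were at least 2-fold higher with both hairpins. At least 4-fold differences were reached by 13 genes with shCENPA2, while the highest fold with shCENPA1 was 3.76. In all 75 genes the 4 knockdown libraries stood above both shNT libraries. The same holds for 21.2% of genes with a mean of at least 0, and the rule makes it likely, so nothing is read from it.

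**Figure D1:**
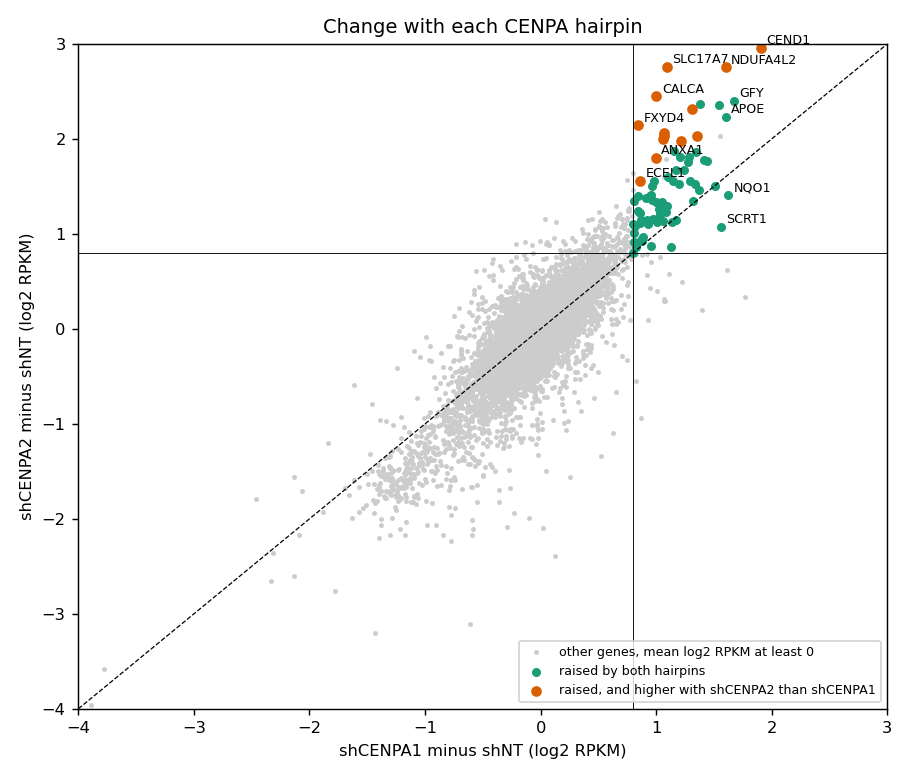
Each point is 1 gene whose mean log2 RPKM reached 0. The horizontal axis gives the shCENPA1 mean minus the shNT mean and the vertical axis the shCENPA2 mean minus the shNT mean, both in log2 RPKM and both against the same shNT libraries. Thin lines mark the threshold of 0.8, and the dashed line marks equal change; 67 of the 75 raised genes (green and orange) sit above it, and the 13 in orange passed the test between the hairpins.

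Most members were weakly expressed with shNT. Their median level with shNT was 0.56 log2 RPKM, against 2.85 over all genes with a mean of at least 0, and 66 of the 75 were below that value. With shNT, 46 were below 1 and 20 below 0. The rule subtracts the shNT level in both changes, which by itself favours genes that are low with shNT. Its mean of at least 0 also takes in the knockdown runs. The low shNT level is therefore partly built in by the choice, and nothing is read from it. The highest level belonged to LDOC1, at 5.23 and 5.17 in the shNT libraries, and the next highest shNT means were those of NMB (3.29), HLA-C (3.23), TNFRSF10D (3.22), DDIT4 (3.18) and SCYL3 (3.15). SCYL3, a kinase-like protein, was higher by 0.81 with shCENPA1 and by 1.01 with shCENPA2. Libraries of a group differed little at the members, with a median SD of 0.10 for shNT, 0.08 for shCENPA1 and 0.13 for shCENPA2 (n = 2 each). INSL5 had the largest SD with shNT (0.60) and with shCENPA2 (0.46), and FXYD4 with shCENPA1 (0.56). Both lanes of a library differed by a median of 0.07.

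**Figure D2:**
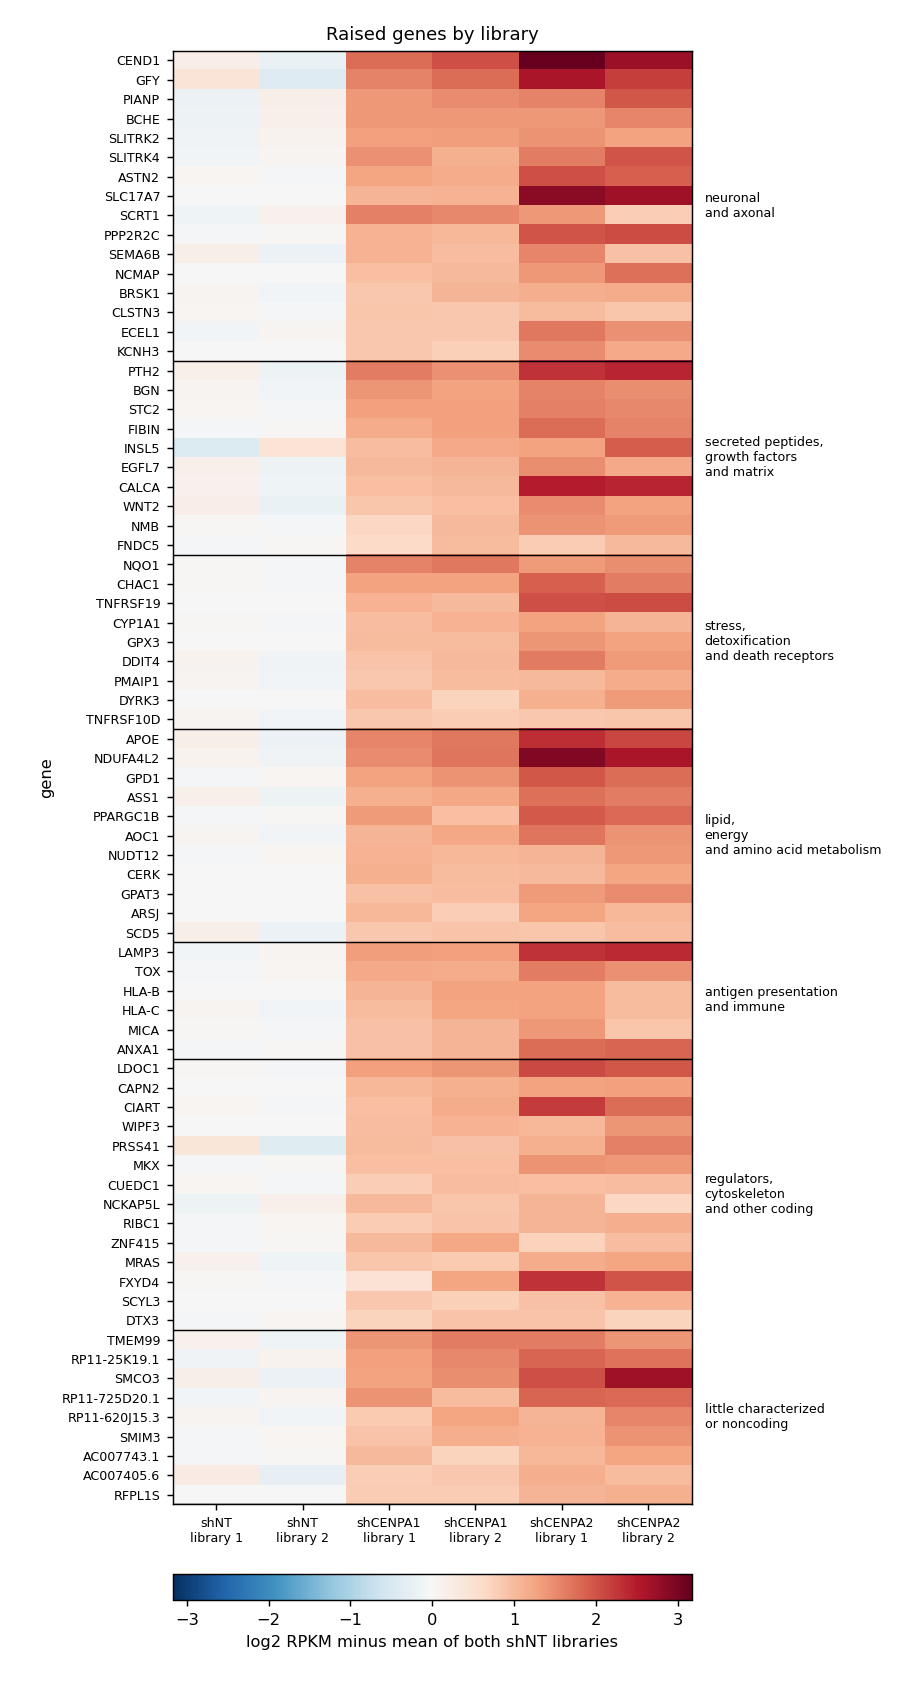
Rows are the 75 raised genes, grouped by role, and columns are the 6 libraries. Among the group labels, death receptors stands for the TNF receptor superfamily members TNFRSF19 and TNFRSF10D, the latter a decoy receptor. Colour gives log2 RPKM minus the mean of both shNT libraries. All 4 knockdown columns are red in every row, with the deepest red for CEND1, NDUFA4L2 and SLC17A7 with shCENPA2.

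Promoters were read for 53 members that have an entry in the RefSeq promoter table for GRCh38.p14, each window running from 250 bases before to 50 after a start site. A gene with several listed start sites was counted once if any of its windows held a match. The ATF4 composite site (TGATGNAA, both strands) occurred at 4 of 53 members (7.55%) and at 2.39% of 8688 genes with a mean of at least 0. These were CHAC1, CALCA, SLC17A7 and PPP2R2C. CIART held 3 matches to the E-box CACGTG, 129, 71 and 57 bases before its start; the E-box occurred at 2 members (3.77%) and at 12.75% of all genes. Upstream sequences of the 4 genes with the composite site and of CIART are shown because they hold these matches, which are in capitals. Bases that GENCODE annotates as untranslated region were left out, except for CHAC1. Its whole stretch is untranslated region of a GENCODE transcript, so only 30 bases around the match are shown. Positions are chr15:40953251-40953280, plus strand for CHAC1, chr19:49441528-49441777, minus strand for SLC17A7 (inside the GENCODE gene span and outside its exons), chr4:6381871-6382118, minus strand for PPP2R2C (1 of its several start sites), chr11:14972355-14972601, minus strand for CALCA and chr1:150282304-150282542, plus strand for CIART.
CHAC1: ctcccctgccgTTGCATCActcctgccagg
SLC17A7: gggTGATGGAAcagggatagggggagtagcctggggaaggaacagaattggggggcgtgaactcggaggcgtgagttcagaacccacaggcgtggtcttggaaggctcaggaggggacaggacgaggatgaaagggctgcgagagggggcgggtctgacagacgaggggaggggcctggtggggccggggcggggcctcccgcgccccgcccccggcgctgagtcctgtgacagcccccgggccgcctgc
PPP2R2C: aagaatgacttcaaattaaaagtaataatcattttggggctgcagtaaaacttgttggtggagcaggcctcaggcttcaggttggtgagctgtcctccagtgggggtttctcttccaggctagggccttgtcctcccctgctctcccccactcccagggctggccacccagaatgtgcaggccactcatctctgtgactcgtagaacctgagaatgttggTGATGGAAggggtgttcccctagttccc
CALCA: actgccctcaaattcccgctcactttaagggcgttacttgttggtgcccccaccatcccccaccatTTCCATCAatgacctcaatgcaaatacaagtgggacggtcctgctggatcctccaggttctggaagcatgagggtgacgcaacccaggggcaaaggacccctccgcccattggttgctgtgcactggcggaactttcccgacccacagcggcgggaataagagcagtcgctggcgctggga
CIART: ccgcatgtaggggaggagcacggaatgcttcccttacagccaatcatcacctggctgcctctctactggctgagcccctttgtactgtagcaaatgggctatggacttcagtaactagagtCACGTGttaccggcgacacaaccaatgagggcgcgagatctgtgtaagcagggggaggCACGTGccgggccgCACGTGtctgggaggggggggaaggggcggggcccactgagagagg

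Counted from the RefSeq start site, the composite site lies 209 bases before CHAC1, 247 before SLC17A7, 184 before CALCA and 30 before PPP2R2C. It reads on the opposite strand in CHAC1 and CALCA. A match is a description of letters and not of binding. STC2 and DDIT4, the other members on the ATF4 list, are not among the genes with the composite site in these windows. Of the remaining motifs, the antioxidant response element core (TGACNNNGC) occurred at 15.09% of members against 19.76% of genes, the AHR core (TNGCGTG) at 7.55% (NQO1 among them) against 9.75%, the cyclic AMP response element (TGACGTCA) at 1.89% against 4.09%, and the AP-1 site (TGANTCA) at 5.66% against 6.19%. An interferon response element was in 0 of 53 windows, against 3.49% of genes. Shares for the cell cycle homology region (TTTGAA) were 15.09% and 13.06%, for the CCAAT box (CCAAT) 47.17% and 44.06%, for the TATA box (TATAAA) 9.43% and 7.34%, and for the GC box (GGGCGG) 71.7% and 78.9%. Promoter GC content, read in the first listed window of each gene, was alike (median 65.0% against 65.7%). The ratio of observed to expected CpG was lower, at a median of 0.67 against 0.85. The genes compared were not matched on level, and the part of level in this difference was not tested.

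**Figure D3:**
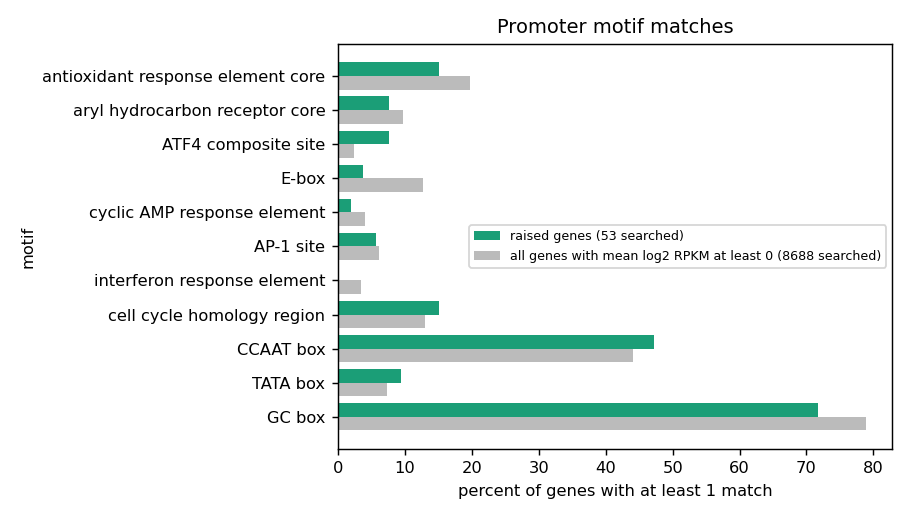
Bars give the percent of genes with at least 1 match to each motif on either strand in the promoter window, green for the 53 raised genes searched and grey for 8688 genes whose mean log2 RPKM reached 0. The composite site stands at 7.55% against 2.39%, and the E-box at 3.77% against 12.75%.

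When sorted by hand into roles after their values were seen, 16 members are neuronal or axonal. The median change of these 16 genes was 1.15 with shCENPA1 and 1.56 with shCENPA2, from a median shNT level of 0.25. CEND1, a membrane protein linked to neuronal cell cycle exit, had the largest change of all 75 genes with both hairpins. It was at 0.83 and 0.42 in the shNT libraries, at 2.40 and 2.66 with shCENPA1, and at 3.79 and 3.37 with shCENPA2. This is 3.76-fold and 7.76-fold. SLC17A7, which loads glutamate into synaptic vesicles, was at 1.79 and 1.82 with shNT, at 2.88 and 2.90 with shCENPA1, and at 4.65 and 4.48 with shCENPA2, so that the groups were well separated with close replicates. PIANP, a ligand of an immune receptor that is expressed in brain, was at -0.41 and -0.02 with shNT, and at 1.17, 1.27, 1.36 and 1.74 in the knockdown libraries. BCHE, the cholinesterase of plasma, was 1.38 higher with shCENPA1 and 1.46 higher with shCENPA2. SLITRK2 and SLITRK4, synaptic adhesion proteins with leucine-rich repeats, were higher by 1.32 and 1.28 with shCENPA1 and by 1.35 and 1.81 with shCENPA2. ASTN2 (neuronal migration) was higher by 1.22 and 1.98, SEMA6B (axon guidance) by 1.04 and 1.23, and SCRT1, a neural zinc finger repressor, by 1.56 and 1.07. SCRT1 was thus one of 8 members with a smaller change with shCENPA2. GFY, NCMAP, BRSK1, CLSTN3, ECEL1, KCNH3 and PPP2R2C complete the group, with changes of 0.81 to 1.67 with shCENPA1 and 0.94 to 2.40 with shCENPA2.

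A group of 10 members encodes secreted peptides, growth factors or matrix proteins, with median changes of 1.07 and 1.54. PTH2, a neuropeptide that acts on a parathyroid hormone receptor, was at -0.45 and -0.79 with shNT, at 1.01 and 0.83 with shCENPA1, and at 1.67 and 1.79 with shCENPA2. It is the thinnest of the members, with 36 and 22 reads in the shNT libraries. CALCA, which encodes calcitonin and a vasodilator peptide, was at 0.44 and 0.15 with shNT, at 1.26 and 1.33 with shCENPA1, and at 2.79 and 2.70 with shCENPA2. Here the step between the hairpins exceeded the step from shNT to shCENPA1. STC2, a secreted stanniocalcin, was 1.29 and 1.56 higher, and the matrix proteoglycan BGN 1.34 and 1.53 higher. FIBIN, EGFL7, WNT2, NMB and FNDC5 were higher by 0.81 to 1.24 with shCENPA1 and by 0.92 to 1.67 with shCENPA2. INSL5, an insulin-like peptide, was at -0.36 and 0.49 with shNT, and at 1.05, 1.28, 1.34 and 1.99 in the knockdown libraries, so that a gap of 0.56 separated the groups while the shNT libraries differed by more than that.

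Stress responses, detoxification and the TNF receptor superfamily account for 9 members. NQO1, a quinone reductase that both NRF2 and AHR can induce, was at 3.16 and 3.09 with shNT, at 4.69 and 4.80 with shCENPA1, and at 4.47 and 4.60 with shCENPA2. CYP1A1, the classical AHR target, was higher by 1.03 and 1.17. CHAC1, which degrades glutathione and is a target of ATF4, was at 2.57 and 2.51 with shNT, at 3.82 in both shCENPA1 libraries, and at 4.44 and 4.17 with shCENPA2. DDIT4, an inhibitor of mTORC1 signalling, was higher by 0.96 and 1.50. PMAIP1, a death-promoting BCL2 family protein, was higher by 0.93 and 1.10. TNFRSF19, a receptor of the TNF receptor superfamily, was at 2.44 and 2.46 with shNT, at 3.56 and 3.48 with shCENPA1, and at 4.49 and 4.53 with shCENPA2, in 3 separate steps. The decoy receptor TNFRSF10D was higher by 0.83 and 0.87, the plasma glutathione peroxidase GPX3 by 1.00 and 1.34, and the kinase DYRK3 by 0.84 and 1.24.

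A further 11 members act in lipid, energy or amino acid metabolism, with median changes of 1.15 and 1.56. NDUFA4L2, a mitochondrial protein known as a hypoxia-induced gene, was at 1.57 and 1.35 with shNT, at 2.96 and 3.17 with shCENPA1, and at 4.39 and 4.04 with shCENPA2. APOE, the lipid carrier of lipoproteins, was at 1.26 and 0.88, at 2.62 and 2.73, and at 3.42 and 3.20. Both genes climbed in the order shNT, shCENPA1, shCENPA2 without overlap. The rule makes the step from shNT likely. In 52 of the 75 members both shCENPA2 libraries were above both shCENPA1 libraries, so the order is not particular to these genes. In the limma test between the hairpins, given below, NDUFA4L2 passed and APOE did not (0.63, adjusted p = 0.0873). GPD1, which links glycolysis to glycerol lipids, was higher by 1.34 and 1.87, the coactivator PPARGC1B by 1.15 and 1.87, and the urea cycle enzyme ASS1 by 1.18 and 1.68. AOC1, which oxidizes diamines, was higher by 1.15 and 1.56. NUDT12, CERK, GPAT3, ARSJ and SCD5 were higher by 0.88 to 1.08 with shCENPA1 and by 0.92 to 1.42 with shCENPA2.

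Another 6 members serve antigen presentation or immune functions. The classical class I genes HLA-B and HLA-C were higher by 1.18 and 1.14 with shCENPA1, and by 1.14 and 1.13 with shCENPA2. HLA-B was at 0.90 and 0.92 with shNT, at 1.98 and 2.19 with shCENPA1, and at 2.20 and 1.92 with shCENPA2. The class I genes are close copies of each other, so how reads were shared between them is uncertain. MICA, a stress-induced ligand of natural killer cells, was higher by 1.01 and 1.12. LAMP3, a lysosomal membrane protein, was at 0.92 and 1.08 with shNT, at 2.32 and 2.30 with shCENPA1, and at 3.28 and 3.36 with shCENPA2. TOX, a nuclear factor of T cell development, was higher by 1.20 and 1.53, and ANXA1, an anti-inflammatory annexin, by 1.00 and 1.80.

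The other 23 members were 14 regulators, cytoskeletal and further coding genes, and 9 little characterized or noncoding ones. LDOC1, a coding gene derived from a retrotransposon gag sequence, was at 6.50 and 6.60 with shCENPA1 and at 7.30 and 7.16 with shCENPA2. CIART, a repressor of the circadian clock, was at 1.57 and 1.47 with shNT, at 2.47 and 2.69 with shCENPA1, and at 3.74 and 3.29 with shCENPA2. FXYD4, a regulator of the sodium pump, was at 0.37 and 0.27, at 0.77 and 1.56, and at 2.61 and 2.32, so its shCENPA1 libraries differed most among all members. The other 11 coding members of this kind, which include the protease CAPN2 and the small GTPase MRAS, were higher by 0.80 to 1.13 with shCENPA1 and by 0.80 to 1.40 with shCENPA2. TMEM99, RP11-25K19.1 and SMCO3, which are among the 12 members with the largest smaller change, were higher by 1.51, 1.41 and 1.38 with shCENPA1 and by 1.50, 1.78 and 2.37 with shCENPA2. RFPL1S is transcribed opposite another gene, and the strand setting of the counting is not given in the sources used here, so its reads cannot be told apart from that partner's.

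The hairpins were compared with each other because the rule treated both alike and did not use their difference, though it used the same group means. Of the members, 13 passed (adjusted p under 0.05, limma over 14624 genes), and each of these was higher with shCENPA2, the hairpin with the lower CENPA level. That is 17.3% of the members, where 0.39% of all genes tested passed as higher and 1.03% as lower with shCENPA2. Most genes tested did not pass with either hairpin, while the members were chosen for large changes. The choice can raise their share by itself, so nothing particular to the members is read from it. SLC17A7 differed most, by 1.67 ± 0.10 (SE; adjusted p = 0.000132). CALCA differed by 1.45 ± 0.15 (adjusted p = 0.00211), NDUFA4L2 by 1.15 ± 0.14 (adjusted p = 0.00573), LAMP3 by 1.01 ± 0.12 (adjusted p = 0.00417) and TNFRSF19 by 0.99 ± 0.09 (adjusted p = 0.00132). PPP2R2C (0.96), ANXA1 (0.81), ASTN2 (0.76) and LDOC1 (0.68) followed at adjusted p values of 0.00988, 0.00993, 0.0158 and 0.00871. FXYD4 (1.30), CEND1 (1.05), CIART (0.93) and ECEL1 (0.70) passed with adjusted p values of 0.0333, 0.0295, 0.0237 and 0.0372. SLC17A7, CALCA and PPP2R2C are also 3 of the 4 members whose upstream sequence held the composite site, PPP2R2C at only 1 of its start sites. CHAC1, which also held it, did not pass by limma (0.48, adjusted p = 0.078). A link between the site and the difference was not tested. In each of the 13 genes both shCENPA2 libraries were above both shCENPA1 libraries, as they were in 52 of the 75. The share of all genes with this order was not computed, so nothing is read from it.

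No member passed as lower with shCENPA2 by limma (0 at an unadjusted p under 0.05 too, against 35 higher, and 0 by voom on recovered reads). The shares of all genes at that unadjusted p were not computed. The most negative differences were SCRT1 at -0.49 (adjusted p = 0.384), ZNF415 at -0.27 (adjusted p = 0.522) and NQO1 at -0.21 (adjusted p = 0.382). HLA-B, HLA-C and TMEM99 differed by -0.03, -0.01 and -0.01, each with an adjusted p of at least 0.955. The count of 13 rests on the few libraries. It was 3 without library 1 of shCENPA1 (CALCA, SLC17A7 and TNFRSF19) and 3 without library 2 (FXYD4, SLC17A7 and TNFRSF19), 10 or 11 without library 1 or 2 of shCENPA2, and 15 or 17 without library 1 or 2 of shNT. SLC17A7 and TNFRSF19 kept an adjusted p under 0.05 under all 20 alternatives to this fit, though TNFRSF19 missed the log2 change beyond 1 that a further alternative asked for. There were 8 when the variance was fitted without a trend.

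Beyond the single genes, 67 of the 75 members (89.3%) were higher with shCENPA2 than with shCENPA1, against 49.6% of genes with a mean of at least 0. The median difference was 0.34, against -0.0015 over those genes. Here too the choice of genes with large changes can shift the values. Among the 287 genes that were lower by at least 0.8 with both hairpins, 266 were lower still with shCENPA2 (median difference -0.32). The hairpins differ in sequence as well as in CENPA level, and in these data the 2 cannot be told apart.

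**Figure D4:**
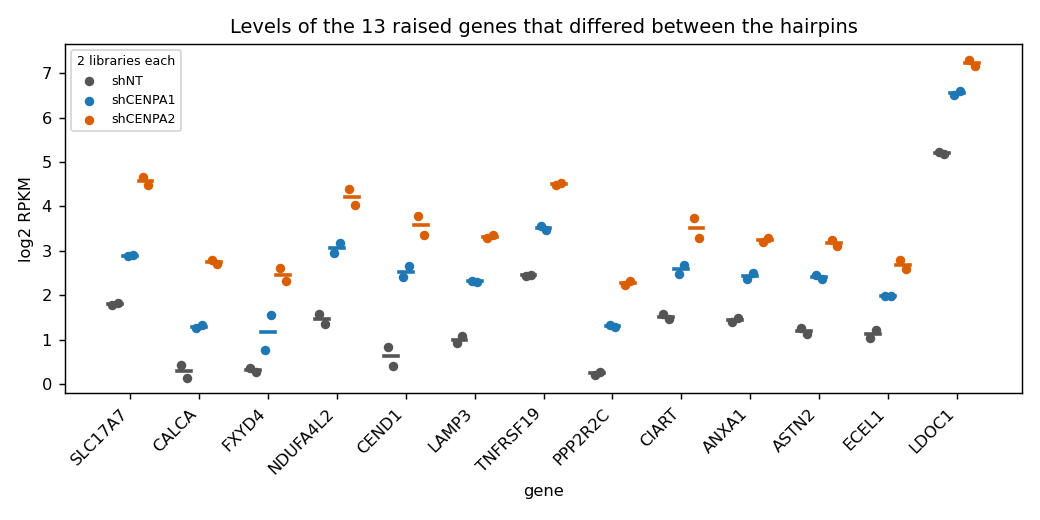
Points are the 2 libraries per hairpin and bars are their means, in log2 RPKM, for the 13 raised genes that passed the test between the hairpins, ordered by the size of the difference. The shCENPA2 points (orange) lie above the shCENPA1 points (blue) in each gene; the gap is largest for SLC17A7 at 1.67 and smallest for LDOC1 at 0.68.

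The pathways that hold members were then read across all their tested genes, from 23 lists written by hand (354 distinct genes tested, 31 of them members). Over all genes tested, 2.69% passed as higher and 4.45% as lower with shCENPA1, and 8.03% and 10.5% with shCENPA2. The medians of all genes were 0.0029 and 0.0122. Genes other than members were tested singly, and the counts that follow describe those tests. The lists were written with earlier results of these data known, so the counts are no independent support. The share of all genes passing with both hairpins was not computed. Both contrasts share the shNT libraries. Genes averaging -3 or more were tested, so some lie below the mean of 0 that the rule asks for.

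Of 21 other ATF4 targets, 6 rose with shCENPA1 and 14 with shCENPA2, and 2 fell with each (medians 0.31 and 0.47). With both hairpins, ASNS (asparagine synthesis) rose by 0.63 and 0.94, DDIT3 by 0.53 and 0.71, TRIB3 by 0.51 and 0.57, SESN2 by 0.68 and 0.85, NUPR1 by 0.75 and 0.98, and SHMT2 by 0.45 and 0.57. ALDH1L2 rose by 1.05 with shCENPA2 (0.36 with shCENPA1). The amino acid transporter subunits SLC7A5 and SLC3A2 went the other way. SLC7A5 fell by 1.34 and 0.97, and SLC3A2 by 0.58 and 0.39. The members on this list are CHAC1, DDIT4 and STC2.

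Synapse and axon genes were the list with the most members, 7 of 32 tested. Of the 25 others, 6 rose with both hairpins: SHANK1 (1.68 and 1.88), LRRC4B (1.80 and 1.94), LSAMP (1.43 and 1.49), NKAIN2 (1.15 and 1.81), TUBB4A (1.24 and 1.02) and ELAVL3 (1.36 and 1.73). All 6 had a mean below 0 log2 RPKM, from -2.41 for SHANK1 to -0.35 for NKAIN2, under the level the rule asks for. Each changed by more than 0.8 with both hairpins, so they belong to the 99 genes that missed the rule by level alone. With shCENPA2 10 rose and 2 fell, SHANK2 by 0.76 and SLITRK6 by 1.09. Others of the list did not pass with either hairpin, among them SNAP25 (0.02 and -0.02), SYP (0.14 and -0.03), TUBB3 (0.03 and 0.29) and the neuronal repressor REST (-0.11 and -0.03). SNAP25, SYP and REST averaged 3.56, 4.54 and 3.81 log2 RPKM, and TUBB3 -2.16. NRXN2 (0.92) and DLG4 (0.67) rose with shCENPA2. Of 9 neuroendocrine markers, none of them members, 2 rose and 2 fell with each hairpin. CHGA, at a mean of -0.83 log2 RPKM, rose by 2.06 and 1.76. CHGB rose by 0.41 with shCENPA1 and SYT1 by 0.89 with shCENPA2, while ENO2 fell by 0.39 and 0.52 and SRRM4 by 0.55 and 0.87.

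NRF2 targets were divided. Besides NQO1, HMOX1 (0.78 and 0.73), ME1 (0.76 and 1.27), CBR1 (0.44 and 0.50), PRDX1 (0.55 and 0.52) and SQSTM1 (0.45 and 0.47) rose with both hairpins. In contrast, AKR1C3 fell by 0.78 and 2.23, and with shCENPA2 AKR1C2 fell by 3.77 and ABCC2 by 2.67. AKR1C2 and ABCC2 averaged -2.22 and -2.28 log2 RPKM, below the level the rule asks for. The glutathione synthesis enzymes GCLM (0.17 and 0.25) and GCLC (-0.25 and -0.24) did not pass. On the AHR list, which CYP1A1 and NQO1 share, CYP1B1 (-0.22 and -0.11), TIPARP (0.06 and 0.01), AHRR (0.10 and 0.74) and NFE2L2 (0.04 and 0.06) did not pass.

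Among 8 other class I presentation genes, 2 rose with shCENPA2, HLA-E by 0.52 and HFE by 2.23. Their values with shCENPA1 were 0.44 and 1.18 and did not pass. HFE averaged only -2.23 log2 RPKM. TAP1 (-0.02 and -0.46), PSMB8 (0.17 and -0.44) and B2M (0.18 and 0.31) did not pass. The rule bars IFI44 and OASL by name, and the interferon-stimulated list holds no member. On that list IFI44 rose by 3.78 and 3.04 and OASL by 3.98 and 1.54 (mean levels of -1.02 and -1.93 log2 RPKM, below the level the rule asks for), and the 24 genes tested gave 5 higher and 1 lower with shCENPA1 and 2 higher and 3 lower with shCENPA2.

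The other lists with members held 1 to 3 each. In the cholesterol efflux list APOE stood apart from 11 others, of which 1 rose and 4 fell with shCENPA1, and 3 fell with shCENPA2. SCD, the stearoyl desaturase, fell by 2.46 and 1.79 and the transporter ABCG1 by 0.76 with shCENPA1. Of 17 other clock genes PER3 rose with both hairpins (0.94 and 1.36), NR1D1 (0.57), TEF (0.53) and ARNTL (0.64) with shCENPA2, and NFIL3 fell by 0.63 and 0.67. Beside NDUFA4L2 and STC2, hypoxia genes gave 2 higher and 4 lower of 21 with shCENPA2. With both hairpins CA12 fell by 0.62 and 1.31. Of 24 other lysosomal genes 9 rose and 1 fell with shCENPA2, and CTSL (0.71 and 1.10), GAA (0.62 and 0.88) and CTSA (0.41 and 0.64) rose with both. In the arginine and polyamine list CPS1 rose by 0.73 and 0.87 and AMD1 fell by 0.51 and 0.90. LAMB2 (0.68 and 1.01), COL6A1 (0.65 and 1.29) and DCN (1.93 and 1.48) rose with both hairpins among the matrix genes. Of the 16 matrix genes that are not members, 4 rose and 4 fell with shCENPA2. The 4 that fell were FMOD (by 1.99), FN1 (by 1.31), FBLN1 (by 1.04) and LAMB1 (by 0.56). Levels were low for DCN, FMOD, FN1 and FBLN1, at means of -1.91, -1.36, -2.72 and -0.95 log2 RPKM. A rise with both was also measured for TNFRSF10B (0.60 and 0.79), a TNF receptor. Secreted factors were mixed, 5 of 23 others higher and 8 lower with shCENPA2.

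Besides PPARGC1B and GPD1, 3 of 16 genes of lipid use rose and 4 fell with shCENPA2, and UCP2 fell with both (by 0.94 and 1.01). Besides LDOC1, 3 of 9 gag-derived genes rose and 3 fell with shCENPA2, and PEG10 fell with both (by 0.65 and 0.70). The senescence list holds no member. The p53 list, written by hand, holds none either. It does not include the members PMAIP1 and TNFRSF10D, and the rule sets GDF15 aside by name, which was higher by 1.08 and 1.79. Of the 28 p53 targets on the list, 3 rose and 2 fell with shCENPA1, and 5 rose and 3 fell with shCENPA2, with CDKN1A at -0.47 and -0.23. Of 13 genes of senescence-associated secretion 1 rose and 4 fell with shCENPA1, and 2 rose and 4 fell with shCENPA2.

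**Figure D5:**
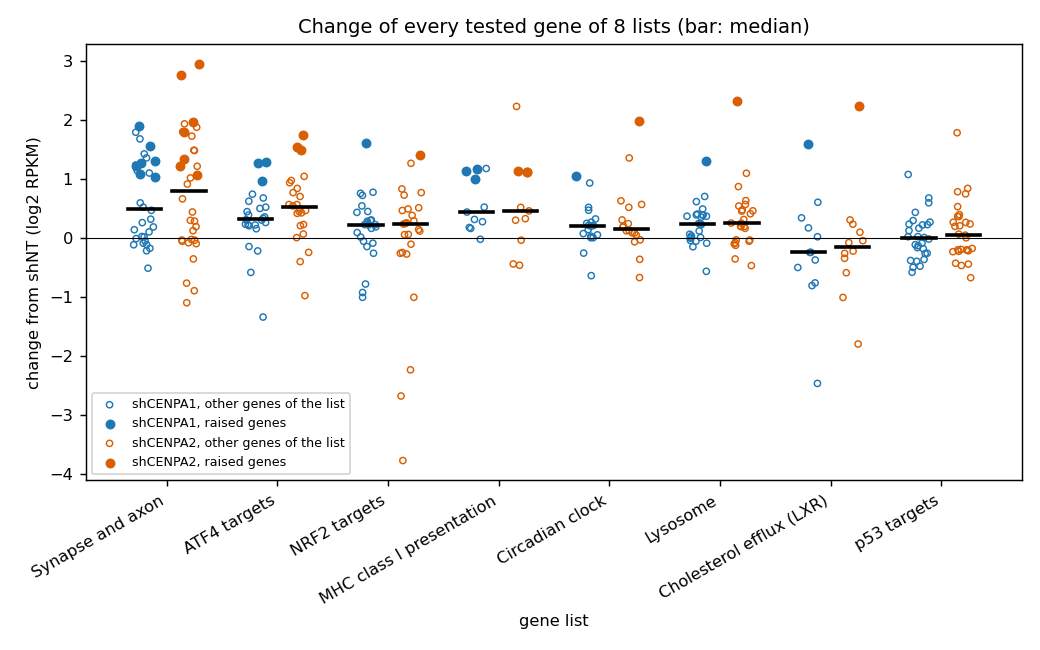
Each point is 1 tested gene of a list, with its change from shNT in log2 RPKM (blue for shCENPA1, orange for shCENPA2). Filled points are raised genes, chosen for that change, and the bar is the median of the list. With the raised genes included, the median was 0.50 and 0.79 for synapse and axon genes and 0.33 and 0.52 for ATF4 targets. Over the genes that are not among the raised ones it was 0.19 and 0.29, and 0.31 and 0.47.

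Changes of fixed cell type markers were read as well, and they do not test the identity of the cells. Of 11 prostate luminal markers, 3 fell with shCENPA1, and 6 fell and 2 rose with shCENPA2. The median change of the 11 was -0.08 with shCENPA1 and -0.48 with shCENPA2. STEAP2 fell by 0.46 and 0.48, and it is the only falling luminal marker named here. The 2 that rose with shCENPA2 were FOLH1 (0.52) and HOXB13 (0.47). Keratins KRT8 (-0.08 and -0.08) and KRT18 (0.01 and -0.30) did not pass. Of other cell types, 3 basal, 4 fibroblast or smooth muscle and 1 leukocyte or endothelial marker could be tested. ITGB4 rose by 0.83 and LUM by 0.74, and CD4 fell by 1.78, each with shCENPA2. Their values with shCENPA1 (0.66, -0.41 and -1.07) did not pass. CD4 averaged only -1.75 log2 RPKM. The part of these markers in the values of the 75 genes was not tested.

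In the genome, 69 of the 75 members matched the GENCODE annotation by name, 68 of them protein-coding and 1 a long noncoding RNA. Chromosome 12 holds 8 (11.59%, against 5.48% of matched genes with a mean of at least 0) and chromosome X 5 (7.25% against 3.48%). These are named because they stood furthest above their share. Others were below it, such as chromosome 2 (1.45% against 6.54%), 17 (1.45% against 5.78%) and 14 (0.0% against 3.24%). No test was run on these shares. Of the 69 matched members, 18 lie within 1 Mb of another member, a share that was not computed for all genes. The closest are PTH2 (chr19:49422419-49423441, minus strand), GFY (chr19:49423749-49428987, plus strand) and SLC17A7 (chr19:49429401-49442360, minus strand), with 308 and 414 bases between them. Their changes were 1.54, 1.67 and 1.09 with shCENPA1, and 2.35, 2.40 and 2.76 with shCENPA2. Reads of such close genes may not be fully separable, and the strand setting of the counting was not given in the sources used here.

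HLA-C (chr6:31268749-31272130), HLA-B (chr6:31353872-31367067) and MICA (chr6:31399784-31415315) are neighbours in the class I region. On chromosome 12, KCNH3 and GPD1 are separated by 545645 bases, with NCKAP5L between them, but other genes there such as TMBIM6 (0.06 and 0.00) and SMARCD1 (0.23 and 0.14) did not pass, and RACGAP1 fell by 1.06 and 1.23. PIANP and CLSTN3 likewise flank CDCA3, which fell by 1.19 and 1.59. DDIT3, which rose as given above, lies between NDUFA4L2 and DTX3. The end of NDUFA4L2 (chr12:57234903-57240715, minus strand) overlaps that of the strongly expressed SHMT2 (chr12:57229573-57234935), so reads there cannot be told apart without the strand. GPAT3 and SCD5 on chromosome 4 lie 737118 bases apart, and HPSE between them fell by 0.90 with shCENPA2. On chromosome 5, SMIM3 lies 923735 bases from PPARGC1B and 223857 from GPX3; SLC26A2 between PPARGC1B and SMIM3 rose by 0.57 and 1.07. On chromosome X, the members LDOC1, SLITRK4 and SLITRK2 span chrX:141111605-145829856. The only other gene tested there, MAGEC2, fell by 3.57 and 5.47. It averaged -2.91 log2 RPKM, close to the -3 below which genes were not tested. This interval was chosen after its values were seen.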

How the data were processed

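Values deposited by the authors are log2 RPKM, 1 column per run, for 22Rv1 cells carrying shNT, shCENPA1 or shCENPA2. By the authors' methods and notes, paired-end stranded mRNA libraries were trimmed with Trim Galore, aligned with STAR to hg38, counted with HTSeq and processed with edgeR; versions were not given in the sources used here. The 12 runs (6 libraries in 2 lanes) were averaged to libraries. The fit covered 14624 genes averaging -3 or more and used limma 3.58.1 under R 4.3.3 (eBayes with a variance trend, all 6 libraries in 1 fit); a gene passed at an adjusted p under 0.05 (Benjamini-Hochberg over those genes). Depth came from whole reads recovered from the value steps (14828 of 14828 genes within 0.001 of a whole read), on which voom was run as an alternative.

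The members and lists were chosen with earlier results of these data known, and the roles were assigned after values were seen. Members named with values are the 12 with the largest smaller change, the 10 of highest mean, those passing between hairpins, those on a list, those within 1 Mb of another and those nearest the threshold, with others by role. Positions are from GENCODE 44 (GRCh38, the same assembly as hg38) and promoters from RefSeq (GRCh38.p14). On simulated reads for shCENPA2 against shCENPA1 (14624 genes), 74 of 100 genes changed 2-fold and 97 of 100 changed 4-fold were recovered, with 7 others called. Same-numbered libraries did not deviate together (correlations of -0.06, -0.10 and -0.14), so no pairing was used. Alternatives changed the added constant, scaling, filter, lanes, variance model and left out each library. AMACR was not analysed here.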

Additional observations from a re-analysis of the deposited data

Results flagged for a closer look

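The effect of both hairpins differed for 13 of the raised genes by the limma test of the difference itself, shCENPA2 minus shCENPA1. On the log2 RPKM scale the difference was 1.67 for SLC17A7, 1.45 for CALCA, 1.30 for FXYD4, 1.15 for NDUFA4L2, 1.05 for CEND1, 1.01 for LAMP3, 0.99 for TNFRSF19, 0.96 for PPP2R2C, 0.93 for CIART, 0.81 for ANXA1, 0.76 for ASTN2, 0.70 for ECEL1 and 0.68 for LDOC1. CENPA itself was at 0.50 and 0.58 with shCENPA1 and at -0.47 and -0.41 with shCENPA2; its part in these differences was not tested. Groups of 2 libraries are too small for a check on single outlying libraries.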

How the results depend on the processing

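Among the raised genes, 13 were higher with shCENPA2 than with shCENPA1 and 0 lower. Of 273 refits of single genes that passed, 230 stayed past the threshold, 43 fell short of it and 0 turned direction. Leaving out 1 library at a time gave 3 to 17 such members, 6 to 84 of all genes higher and 21 to 287 lower (57 and 151 with all libraries), 37 to 77 list genes higher and 9 to 31 lower with shCENPA1 (69 and 26), 66 to 106 higher and 35 to 52 lower with shCENPA2 (108 and 55), and 74 to 97 genes under the rule (75). With 1 library left in a group, that library is assumed to vary like the other groups. Counting lanes as replicates, which are not independent, gave 43 members higher and 3 lower, 1478 and 1841 of all genes, 152 and 65 list genes with shCENPA1 and 90 lower with shCENPA2. Without the variance trend 8 members and 31 of all genes were higher. Asking for a log2 change beyond 1 as well left 6 members, 26 higher and 81 lower of all genes, 42 and 8 list genes with shCENPA1, and 51 and 27 with shCENPA2. By voom on recovered reads 100 genes were higher. With 1 added to RPKM, which draws low genes towards 0, only 30 genes met the rule; median-centred libraries gave 84 and quantile normalization 93. With a replicate block for the library number 12 members passed; as same-numbered libraries did not deviate together, a block with the shCENPA1 numbers exchanged was added after seeing the data and gave 15 members and 98 of all genes higher. Members rest on 22 to 26576 reads per library, and with 2 libraries per group the simulation recovered 74 of 100 changes of 2-fold between the hairpins.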
